A study of Eriocheir sinensis with 9 samples.

Results

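The 200 abundant transcript isoforms whose levels varied least across all libraries were examined in eyestalks of Eriocheir sinensis, the Chinese mitten crab, at 22, 27 and 32 °C. They were chosen by their measured values: isoforms with a mean of at least 20 FPKM over the 9 libraries were kept, the 100 with the highest mean were left out, and the 200 with the smallest standard deviation (SD) of log2(FPKM + 1) over the 9 libraries were taken. FPKM is a fragment count corrected for transcript length and for library size. The table holds 267789 isoforms, of which 6460 reached the minimum mean and 6360 remained after the most abundant were left out, so the steadiest isoforms are 200 of these 6360. The other 6160 are called the other abundant isoforms below. Low spread across libraries was the choice itself, so it is described here without a test.

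RNA of wild-type crabs between molts was sequenced, with 3 libraries at each of 22, 27 and 32 °C. The crabs were held at 25 °C before the experiment and then distributed over 6 temperatures, of which 7, 12 and 17 °C were not analysed here, with 3 parallel replicates of 16 crabs per temperature. The labels call all 9 libraries untreated, so the temperature was read from the library title, and they do not say whether a library holds 1 crab or several, nor how long the exposure lasted. The temperatures and crab numbers come from the treatment protocol in the sample labels. These labels and the series title give eyestalk as the tissue, while the design text of the series speaks of muscle and of 2 assays, ATAC-seq and RNA-seq; only RNA values were at hand. The identifiers are bare numbers, and 0 matched the RefSeq gene table at hand, so neither the tissue nor the functions of the isoforms could be checked against marker genes. The spread between replicates may be partly technical, since nothing ties them to separate animals.

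Crabs are ectotherms, whose body temperature follows the water. The eyestalk combines the compound eye and optic ganglia with the X-organ and sinus gland, which release peptide hormones that control blood sugar, molting and pigment movement. In most animal tissues some transcripts keep a nearly even level over many conditions. They often come from genes of general cell upkeep, such as those for ribosomal proteins, translation factors and the cytoskeleton, and they serve as internal references when other transcripts are compared between samples. Which genes the 200 isoforms come from is not known here, and several could come from the same gene. In whole tissue, fewer cells of a type and less RNA per cell cannot be told apart.

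Sequencing depth is unknown, since no read totals were at hand. Summed FPKM ran from 1704920 to 2227270 per library and averaged highest at 22 °C, a difference that bears on every comparison of levels below. All 200 steadiest isoforms passed the filter for testing, at least 1 FPKM in at least 3 libraries, which 101114 isoforms passed in all.

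Within the 9 libraries, the steadiest isoforms kept close to a common level. Their coefficient of variation of FPKM ran from 3.98 to 11.1% with a median of 9.14%, against a median of 37.7% among the other abundant isoforms. The highest library exceeded the lowest by 1.11 to 1.44-fold, with a median of 1.31-fold. For the other abundant isoforms above 0 in every library the median was 2.85-fold, and 842 of the 6160 were listed at 0 in at least 1 library, which 0 of the 200 were. The SD of log2(FPKM + 1) ran from 0.058 to 0.15 with a median of 0.13, against a median of 0.56 among the other abundant isoforms and 0.57 among the 100 most abundant.

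The cut between chosen and not chosen isoforms fell in a continuous range. The last isoform inside had an SD of 0.152603 at a mean of 28.7 FPKM, and the first outside had 0.152728 at 307 FPKM. At the lower limit of abundance, the least abundant isoform kept averaged 20.01 FPKM and the next one below 19.9967 FPKM. At the upper limit, the most abundant isoform kept averaged 2464 FPKM and the least abundant of the 100 left out 2492 FPKM.

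**Figure D1:**
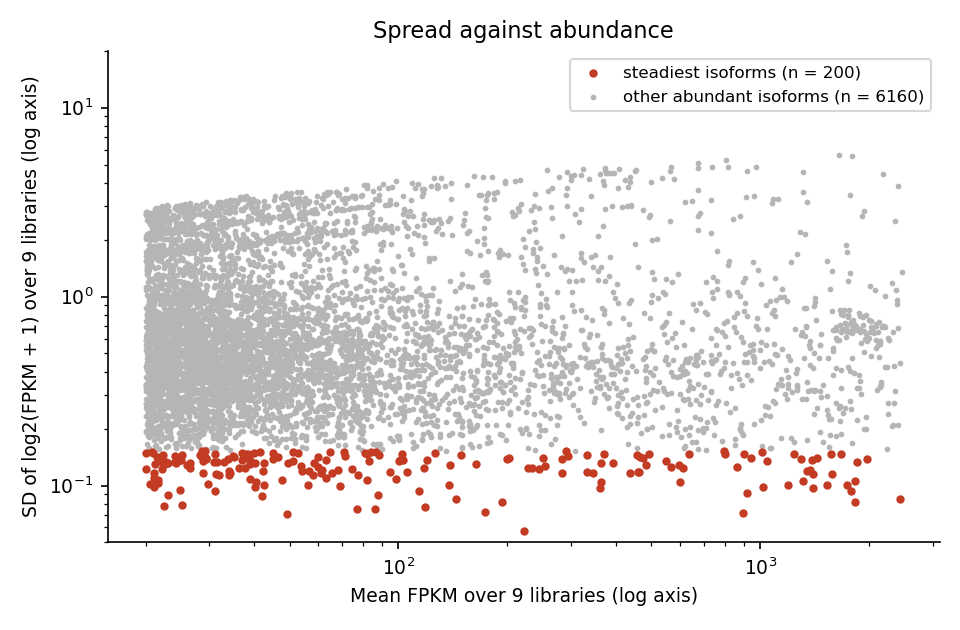
Spread of each abundant isoform over the 9 libraries (SD of log2(FPKM + 1), log axis) against its mean FPKM (log axis). Red points are the 200 steadiest isoforms, grey points the other 6160 abundant isoforms; the red points lie along the lower edge over the whole range of abundance, with SDs up to 0.15.

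The steadiest isoforms covered the whole range of abundance that the choice allowed, with a larger share at high levels. Their means ran from 20.05 to 2435 FPKM with a median of 66.9 FPKM, against a median of 39.4 FPKM among the other abundant isoforms. Of the 2129 abundant isoforms of 20 to 30 FPKM, 45 (2.11%) were among the 200, and of the 285 isoforms of 1000 to 2500 FPKM, 24 (8.42%) were. The share was 2.35% at 30 to 50 FPKM, 3.12% at 50 to 100, 3.38% at 100 to 200, 6.26% at 200 to 500 and 5.39% at 500 to 1000 FPKM. The 24 isoforms of 1000 FPKM or more held 57.8% of the FPKM of the 200, and the 83 isoforms below 50 FPKM held 4.06%.

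The 2 isoforms with the smallest spread differed in abundance. Isoform_54629 averaged 222 FPKM, above the upper quartile of the other abundant isoforms, 86.9 FPKM, and isoform_52039 averaged 49.2 FPKM, between their median and that quartile. Isoform_54629 read 231.07, 226.08 and 226.19 FPKM in the 22 °C libraries, 214.65, 208.25 and 230.37 FPKM in the 27 °C libraries, and 209.69, 228.45 and 222.65 FPKM in the 32 °C libraries. The 3 groups overlapped, its highest library exceeded its lowest by 1.11-fold, and its difference between 32 and 22 °C was -0.049 on the log2(FPKM + 1) scale (standard error 0.047). Among all isoforms of a library it ranked between 912 and 1018 by FPKM. Isoform_52039 read 47.29, 47.8 and 49.44 FPKM in the 22 °C libraries, 51.17, 52.87 and 48.58 FPKM in the 27 °C libraries, and 47.4, 52.53 and 45.84 FPKM in the 32 °C libraries. Its groups overlapped as well, and the 32 °C libraries held both its lowest value and its second highest. Its difference between 32 and 22 °C was 0.010 with a standard error of 0.057, and its rank lay between 2630 and 3196.

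The 2 most abundant isoforms of the 200 were higher at 32 °C in every library. Isoform_9410 averaged 2307 ± 55.1 FPKM in the 22 °C libraries, 2387 ± 30.9 FPKM in those kept at 27 °C and 2610 ± 84.3 FPKM in those kept at 32 °C (SD, n = 3 each). Its lowest 32 °C library, at 2539.3 FPKM, lay above its highest 27 °C library, at 2418.49 FPKM, and its highest 22 °C library, at 2356.77 FPKM. The difference between 32 and 22 °C was 0.18 on the log2 scale, with a standard error of 0.029 (0.090 in limma's model, described below). Isoform_17829 read 1756.88, 2084.75 and 1918.55 FPKM in the 22 °C libraries, 1759.45, 2061.29 and 1729.77 FPKM in the 27 °C libraries, and 2185.44, 2092.64 and 2173.99 FPKM in the 32 °C libraries. Its 22 and 27 °C libraries overlapped, and its 32 °C libraries lay above both, the lowest by a small margin.

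The 2 least abundant isoforms overlapped at all 3 temperatures. Isoform_328726 read 19.06, 22.1 and 21.67 FPKM in the 22 °C libraries, 23.04, 17.99 and 18.27 FPKM in the 27 °C libraries, and 19.8, 19.81 and 18.7 FPKM in the 32 °C libraries. Isoform_117553 read 18.08, 20.53 and 23.9 FPKM in the 22 °C libraries, 17.27, 21.8 and 22.23 FPKM in the 27 °C libraries, and 18.58, 19.93 and 18.63 FPKM in the 32 °C libraries. For both, the 32 °C libraries were the closest together, with an SD of 0.638 FPKM for isoform_328726 and 0.765 FPKM for isoform_117553, against 1.65 and 2.92 FPKM at 22 °C.

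Even the largest differences between temperatures in the set were small, as the cap that the choice put on spread required. Isoform_375827 showed the largest positive difference between 32 and 22 °C, 0.31 on the log2(FPKM + 1) scale (standard error 0.062). It read 62.04, 54.05 and 55.46 FPKM in the 22 °C libraries, 69.37, 62.85 and 64.91 FPKM in the 27 °C libraries, and 72.92, 70.05 and 69.66 FPKM in the 32 °C libraries, so that the groups did not overlap and followed the order of temperature. Isoform_83113 was next, at 0.30 with a standard error of 0.051, and averaged 705 ± 21.2 FPKM in the 22 °C libraries, 825 ± 22.99 FPKM in those kept at 27 °C and 869 ± 55.0 FPKM in those kept at 32 °C (SD, n = 3 each). Its 27 and 32 °C libraries overlapped, and all of them lay above the 22 °C libraries. The largest negative difference belonged to isoform_81723, at -0.25 with a standard error of 0.039. That isoform read 27.86, 27.57 and 29.77 FPKM in the 22 °C libraries, 28.81, 26.82 and 27.1 FPKM in the 27 °C libraries, and 23.72, 24.04 and 23.24 FPKM in the 32 °C libraries, with only the 32 °C libraries apart from the others. Isoform_196900, at -0.23 with a standard error of 0.068, averaged 24.3 ± 1.46 FPKM in the 22 °C libraries, 21.9 ± 1.82 FPKM in those kept at 27 °C and 20.6 ± 0.392 FPKM in those kept at 32 °C (SD, n = 3 each). Its 32 °C libraries lay below the 22 °C libraries and overlapped those at 27 °C. These standard errors come from the replicates of each isoform, whose small spread the choice favoured, so they run low. In limma's model, described below, they were 0.15 for isoform_375827, 0.11 for isoform_83113, 0.15 for isoform_81723 and 0.16 for isoform_196900.

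**Figure D2:**
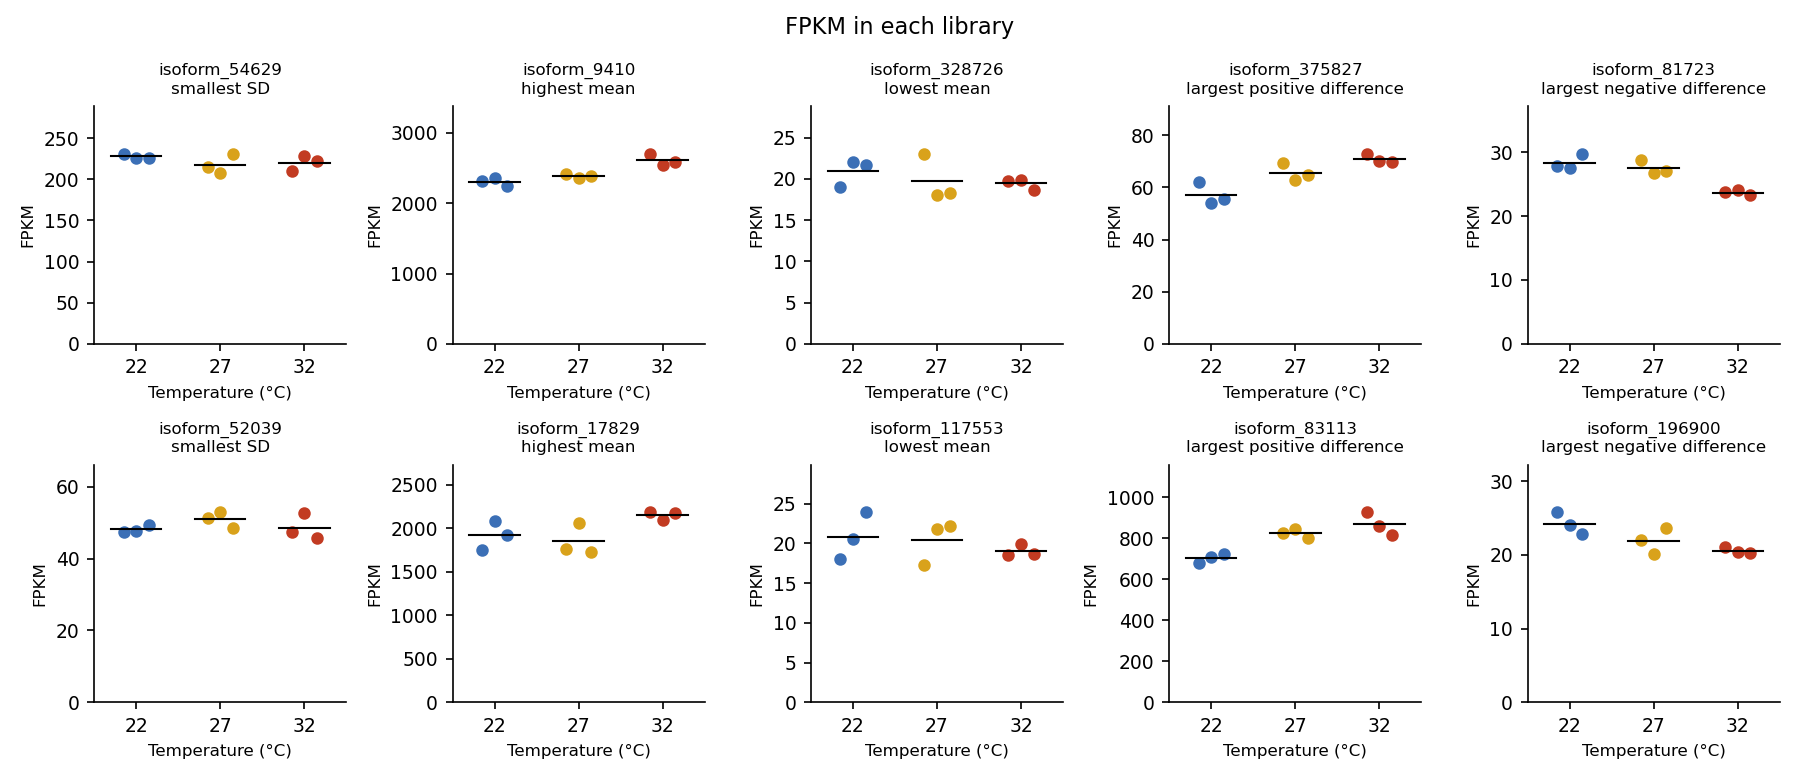
FPKM in each library (points, 3 per temperature) and the mean per temperature (lines) of the isoforms named in the text; the FPKM axes start at 0 and differ between panels. Isoform_375827 stands at 69.66 FPKM or more at 32 °C and at 62.04 FPKM or less at 22 °C, while isoform_54629 overlaps at all 3 temperatures.

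Within the 200, single libraries of a temperature spread more around their mean than the means of the 3 temperatures spread around each other. The pooled SD within temperatures had a median of 0.11 on the log2(FPKM + 1) scale, and the SD of the 3 temperature means a median of 0.082. A mean of 3 libraries varies less than a single library, so the second value is smaller by construction when temperature has no effect. The order of these medians therefore does not show that replicates outweighed temperature, and the counts that follow share this limit. The temperature means spread more than the replicates in 62 of the 200 (31.0%), and in 2342 of the 6160 other abundant isoforms (38.0%). The difference between 32 and 22 °C ran from -0.25 to 0.31 over the 200, with a median size of 0.11 regardless of direction. Its standard error from the replicates of the isoform itself had a median of 0.090, a value that the choice of small spread lowers. In limma's model, described below, the median standard error was 0.16. The median size was 0.083 for 27 against 22 °C and 0.086 for 32 against 27 °C, and no isoform of the 200 differed by more than 0.31 in any of these comparisons. Of the other abundant isoforms, 1632 (26.5%) differed by more than 1 on this scale between 32 and 22 °C. The choice capped the spread over all libraries, which also bounds the differences of the 200, so this contrast follows from it.

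No isoform of the 200 passed limma's moderated test, a linear model over all tested isoforms that shares the estimate of spread among them, at a Benjamini-Hochberg adjusted p of 0.05. For 32 against 22 °C, 0 of 200 were called, where 1.7% of all tested isoforms were. For 27 against 22 °C 0 were called, where 0.587% of all tested were, and for 32 against 27 °C 0, where 0.12% were. The F-test of any difference among the 3 temperatures called 0, where 1.12% of all tested were. At an unadjusted p under 0.05, limma gave 6 of the 200 for 32 against 22 °C, where 16.5% of all tested isoforms fell under it, 0 for 27 against 22 °C (15.3% of all tested), 1 for 32 against 27 °C (9.04%) and 0 in the F-test (16.4%). In the same order these counts were 36, 5, 6 and 14 after rescaling to TPM (18.5, 15.3, 9.02 and 17.4% of all tested). After median-of-ratios scaling they were 7, 4, 0 and 1 (16.1, 15, 8.85 and 16% of all tested). After quantile normalization they were 24, 5, 12 and 17 (15.6, 14.8, 9.25 and 15.8% of all tested). The choice used the same libraries, so these counts follow from it and are not evidence that temperature leaves the isoforms unaffected.

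The groups of libraries separated for a part of the 200. For 32 against 22 °C, all 3 libraries at 32 °C lay above all 3 at 22 °C in 26 isoforms (13.0%), where 14.8% of all tested isoforms did, and below in 10 (5.00%), where 8.31% did. These 36 isoforms differed by 0.13 to 0.31 in size. Between 27 and 22 °C, the 27 °C libraries lay above in 26 (13.0%), with 14.7% of all tested, and below in 12 (6%), with 8.65% of all tested. Between 32 and 27 °C, the 32 °C libraries lay above in 33 (16.5%), with 7.23% of all tested, and below in 14 (7.00%), with 7.12% of all tested. In either direction, 18% of the 200 separated between 32 and 22 °C, against 30.5% of the other abundant isoforms. For 27 against 22 °C these shares were 19 and 35.2%, and for 32 against 27 °C they were 23.5 and 18.9%. The choice used these contrasts too, and nothing is read from the shares.

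With FPKM as deposited, which way the means leaned was close to even over the whole set. The mean at 32 °C lay above that at 22 °C in 114 isoforms and below it in 86, and the mean at 27 °C above that at 22 °C in 108 and below in 92. Between 32 and 27 °C, 100 lay above and 100 below. The 27 °C mean lay between the others in 70 isoforms, was the highest in 69 and the lowest in 61. The median difference over the 200 was 0.022 for 32 minus 22 °C, 0.018 for 27 minus 22 °C and 0.0012 for 32 minus 27 °C. Leaving out replicate 2 at 32 °C moved the first of these to -0.0017. Of the other abundant isoforms, 49.9% had a higher mean at 32 than at 22 °C. The lean depended on the scaling between libraries: 191 of the 200 were higher at 32 than at 22 °C under TPM, and 32 under median-of-ratios scaling.

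The lean differed with abundance inside the set. Of the 24 isoforms of 1000 FPKM or more, 23 had a higher mean at 32 than at 22 °C, with a median difference of 0.13 on the log2 scale. Against 27 °C, 22 of the 24 were higher at 32 °C, with a median of 0.17. In 19 of them all 3 libraries at 32 °C lay above all 3 at 27 °C. Of all tested isoforms 7.23% did so, and of the other abundant isoforms 9.35%. Both shares cover isoforms of all abundances, not only those of 1000 FPKM or more. The choice favoured small spread in these same libraries, so nothing is read from the count of 19. The summed FPKM of these 24 isoforms was 35179 ± 1823 in the 22 °C libraries, 34796 ± 885 in those kept at 27 °C and 38749 ± 635 in those kept at 32 °C (SD, n = 3 each), and the lowest 32 °C library, at 38028, lay above the highest 22 °C library, at 37052, and the highest 27 °C library, at 35792. The 40 isoforms of 200 to 1000 FPKM had a median difference of 0.11 between 32 and 22 °C, with 29 of 40 higher. The 53 isoforms of 50 to 200 FPKM had a median of 0.0094, with 28 higher, and the 83 isoforms below 50 FPKM a median of -0.022, with 34 higher. Neither of these small medians kept its sign throughout. For the 83 it was 0.0083 without replicate 3 at 22 °C, and for the 53 it was -0.0012 with replicate 1 at 22 °C omitted and -0.015 with replicate 2 at 32 °C omitted. The other abundant isoforms had medians of -0.021 at 200 to 1000 FPKM, 0.023 at 50 to 200 FPKM and 0.024 below 50 FPKM.

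The other abundant isoforms of 1000 FPKM or more leaned the other way. Their median difference between 32 and 22 °C was -0.56 over 261 isoforms, of which 66 (25.3%) were higher at 32 °C. Without replicate 2 at 32 °C this median was -0.33, against 0.14 for the 24 steadiest isoforms. Over the 261 it was -0.36 after rescaling to TPM, -0.17 after quantile normalization and -0.74 after median-of-ratios scaling. The choice kept only isoforms of small spread, which bounds the differences of the 24, so this contrast partly follows from it. The lean of the 24 against 22 °C depended on the scaling between libraries: the median was 0.33 after rescaling to TPM and 0.56 after quantile normalization, but -0.047 after median-of-ratios scaling, with 7 of 24 higher. The 40 isoforms of 200 to 1000 FPKM turned as well under median-of-ratios scaling, to a median of -0.065 with 15 of 40 higher. Of the 83 isoforms below 50 FPKM, 80 were higher at 32 °C under TPM, with a median of 0.16, while 5 were higher under median-of-ratios scaling, with a median of -0.19, and 20 under quantile normalization, with a median of -0.053. The 53 isoforms of 50 to 200 FPKM had medians of 0.20, -0.17 and -0.033 under the same scalings. The other abundant isoforms below 50 FPKM moved alongside, with medians of 0.20, -0.14 and -0.012 in the same order. Against 27 °C, the lean of the 24 kept its sign, with medians of 0.25 under TPM, 0.17 under median-of-ratios scaling and 0.41 under quantile normalization. In each single-library omission, the median of the 24 stayed between 0.10 and 0.18 for 32 minus 22 °C and between 0.15 and 0.20 for 32 minus 27 °C.

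Deviations were not concentrated in one library. Each of the 9 libraries held the highest value of 11 to 39 of the 200 isoforms and the lowest value of 10 to 38. Replicate 2 at 32 °C was the highest for 39 and the lowest for 10. Replicate 3 at 22 °C was the lowest for 38 and the highest for 28, and replicate 1 at 22 °C the lowest for 36 and the highest for 27. Replicate 2 at 27 °C held the fewest extremes, the highest value of 11 isoforms and the lowest of 10. The median absolute deviation from the mean of an isoform was smallest there, at 0.057 on the log2 scale, and largest in replicate 3 at 22 °C, at 0.10. The other abundant isoforms also deviated least in replicate 2 at 27 °C, with a median of 0.31.

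The small deviations that remained were only partly shared among the isoforms. The first principal component of the centred log2 values held 26.5% of their variance over the 200, and 27.0% over the other abundant isoforms. On it, the 32 °C libraries scored -0.48 to -0.28 and the 27 °C libraries 0.074 to 0.19, while the 22 °C libraries were scattered from -0.16 to 0.61. Along the second component, which held 18.8%, the 22 °C libraries scored 0.22 to 0.53 and the 27 °C libraries -0.43 to -0.27. Replicate 1 at 32 °C lay at -0.40 there, among the 27 °C libraries, and replicates 2 and 3 at 32 °C at 0.011 and 0.23. For the other abundant isoforms, the first component set the 22 °C libraries, at 0.20 to 0.60, apart from the 6 warmer ones, at -0.38 to -0.10.

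A library that took no part in the choice gives a value that the choice did not fix. The same rule was applied to 8 libraries, and the deviation of the ninth from the mean of the 8 was read for the 200 isoforms so chosen. Over the 9 libraries left out in turn, the median absolute deviation of the chosen isoforms ran from 0.084 to 0.16 on the log2(FPKM + 1) scale, against 0.34 to 0.49 for the remaining abundant isoforms. The remaining isoforms thus deviated 2.90 to 4.45 times as much, with a median ratio of 3.28. The deviation exceeded 1 for 3 chosen isoforms in all, 1 each in replicate 1 at 22 °C, replicate 1 at 27 °C and replicate 1 at 32 °C, the farthest at 2.06. Of the remaining abundant isoforms, 19.7 to 26.1% deviated by more than 1 in the library left out. The median over the 9 omissions was 0.13 for the chosen isoforms, while in libraries that took part in the choice of the 200 the median deviation from the mean of all 9 was 0.057 to 0.10.

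Leaving out all libraries of 22 or of 32 °C gave larger deviations than leaving out any single library. For the 200 isoforms steadiest at 27 and 32 °C alone, the mean at 22 °C differed by a median of 0.22 in size, with 28 isoforms (14.0%) beyond 0.5 and 1 beyond 1. It was lower than the mean of the warmer libraries in 127 and higher in 73, with a median of -0.11, which was also the median of the remaining abundant isoforms. For those steadiest at 22 and 27 °C, the mean at 32 °C differed by a median of 0.19 in size, with 13 (6.50%) beyond 0.5 and 0 beyond 1. For those steadiest at 22 and 32 °C, the mean at 27 °C differed by a median of 0.14, with 6 (3%) beyond 0.5 and 0 beyond 1. Among the remaining abundant isoforms, 48.9% lay beyond 0.5 when 22 °C was left out, 39.1% when 32 °C was and 39.5% when 27 °C was.

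**Figure D3:**
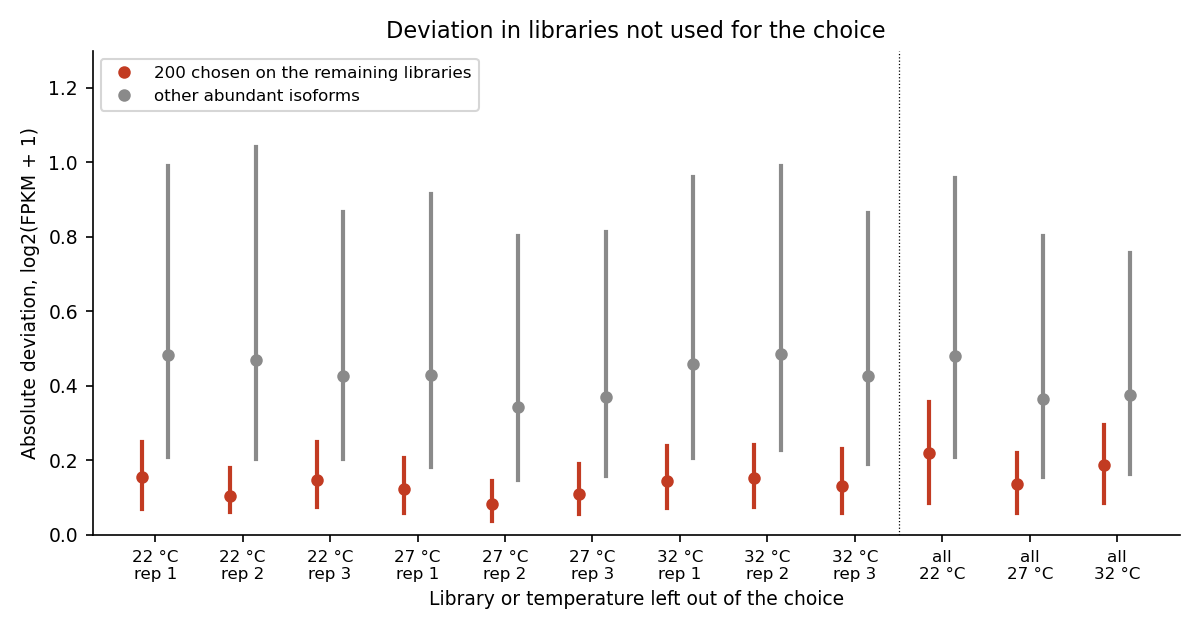
Absolute deviation of log2(FPKM + 1) in a library, or in the mean of a temperature, that was left out of the choice (points are medians, bars run from the lower to the upper quartile). Red marks the 200 isoforms chosen on the remaining libraries, with medians of 0.084 to 0.16 for single libraries and 0.14 to 0.22 for temperatures; grey marks the other abundant isoforms, with medians of 0.34 to 0.49.

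Membership depended on single libraries for part of the set. Between 162 and 181 of the 200 isoforms were chosen again when a library was left out, and 132 were chosen in all 9 omissions. The 9 omissions together named 412 isoforms, 212 of which were outside the 200. Fewer were chosen again without a temperature: 98 without 22 °C, 121 without 27 °C and 104 without 32 °C. All 12 of these choices held 41 isoforms, with means of 21.1 to 1833 FPKM and SDs of up to 0.12. Isoform_54629 and isoform_52039 were among these 41, and the other named isoforms were not. Isoform_81723 and isoform_196900 were chosen in all 9 library omissions, isoform_17829 in 8, isoform_9410 and isoform_328726 in 6, isoform_83113 in 5, isoform_375827 in 3 and isoform_117553 in 1. Isoform_117553 was chosen again in 0 of the 3 temperature omissions and the other 7 in 1 or 2.

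How steady the isoforms were also depended on how libraries were scaled to each other. Under the deposited FPKM, the geometric mean of the 200 was 106 ± 0.205 FPKM in the 22 °C libraries, 107 ± 0.674 FPKM in those kept at 27 °C and 108 ± 1.60 FPKM in those kept at 32 °C (SD, n = 3 each), and its highest library exceeded the lowest by 1.04-fold. Summed FPKM of all isoforms varied by 1.31-fold over the same libraries, and median-of-ratios factors, which take the typical isoform as fixed, by 1.26-fold with their lowest values at 22 °C. Summed FPKM relative to the average library was 1.08 ± 0.0571 in the 22 °C libraries, 0.990 ± 0.0155 in those kept at 27 °C and 0.942 ± 0.0857 in those kept at 32 °C. The median-of-ratios factors were 0.922 ± 0.0487, 1.04 ± 0.0224 and 1.04 ± 0.0496 at these temperatures (SD, n = 3 each). The 200 were chosen on FPKM as deposited, which fixes their even level on that scale.

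Rescaling moved the 200 together. After rescaling each library to the same sum (TPM), 191 of the 200 were higher at 32 than at 22 °C, with a median difference of 0.21 on the log2 scale. After median-of-ratios scaling 32 were higher and 168 lower, with a median of -0.15, and after quantile normalization 97 were higher and 103 lower, with a median of -0.0077. The other abundant isoforms moved alongside, with medians of 0.19, -0.17 and -0.013. Of the 200, 103 stayed among the steadiest 200 after rescaling to TPM, 114 after median-of-ratios scaling and 130 after quantile normalization. Ranked by spread among the 6360, the lowest-placed of the 200 stood at 663 under TPM, at 635 under median-of-ratios scaling and at 1974 under quantile normalization.

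A core of 29 isoforms belonged to the steadiest 200 under all 4 scalings, out of 431 isoforms chosen under at least 1 of them. Their means ran from 20.6 to 602 FPKM with a median of 49.2 FPKM, so none came from the 24 isoforms above 1000 FPKM. Under FPKM, 13 of the 29 were higher and 16 lower at 32 than at 22 °C. In 19 of the 29 the choice also held through every omission of a library or a temperature, and both isoform_54629 and isoform_52039 were among these.

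Dividing every library by the geometric mean of the 200 isoforms left the counts of calls over all isoforms close to those of the deposited values. For 32 against 22 °C, limma then called 880 rises and 823 falls at a Benjamini-Hochberg adjusted p of 0.05, against 918 and 798 with FPKM as deposited. Rises made up 51.7% of the calls after this division and 53.5% before it, but 63.1% under TPM, 45.0% under quantile normalization and 39.3% under median-of-ratios scaling. On the deposited scale, single libraries moved the count and turned the balance: 434 were called without replicate 1 at 22 °C, with 204 rises and 230 falls, 451 with replicate 2 at 22 °C omitted (214 and 237) and 502 with replicate 2 at 32 °C omitted (234 and 268). The other omissions gave 635 (replicate 3 at 32 °C), 801 (replicate 3 at 22 °C), 1030 (replicate 1 at 32 °C), and 1039, 1073 and 1172 (replicates 3, 2 and 1 at 27 °C), with rises at 48.7 to 51.5% of the calls. A fit with the replicate number as a block called 170 rises and 206 falls. The 200 were chosen on the deposited scale, so this closeness follows from the choice.

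**Figure D4:**
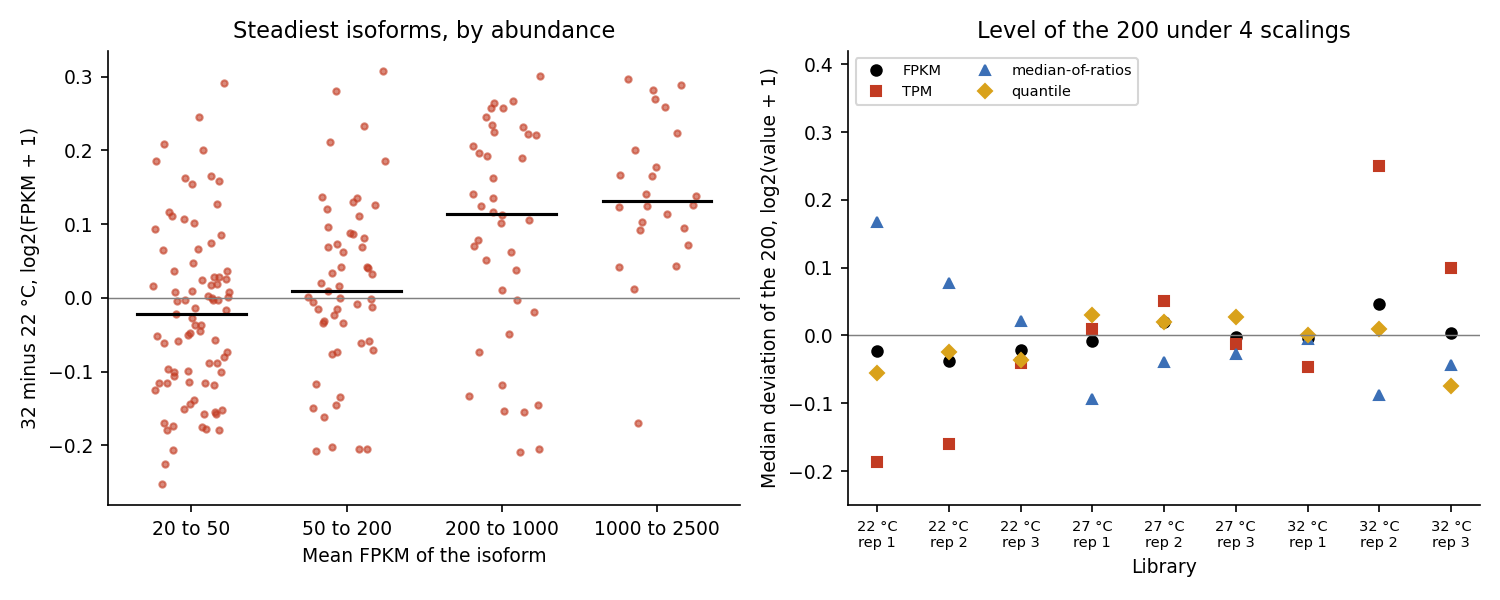
Left, the difference between 32 and 22 °C of each of the 200 isoforms by its mean FPKM, with medians as lines, from -0.022 below 50 FPKM, a value that is 0.16 under TPM, to 0.13 at 1000 FPKM or more, a value that is -0.047 after median-of-ratios scaling. Right, the median deviation of the 200 isoforms in each library under 4 scalings; under FPKM it stays between -0.037 and 0.046, and under TPM it runs from -0.19 to 0.25.

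The 200 isoforms held a small share of the measured total, larger in the warmer libraries. They made up 2.86% ± 0.0526 of summed FPKM in the 22 °C libraries, 3.12% ± 0.0988 in those kept at 27 °C and 3.56% ± 0.358 in those kept at 32 °C (SD, n = 3 each). The libraries of the 3 temperatures did not overlap between 22 and 27 °C or between 22 and 32 °C, and replicate 1 at 32 °C, at 3.18%, lay inside the 27 °C range of 3.05 to 3.24%. Their own summed FPKM was 60954 ± 2576 in the 22 °C libraries, 61244 ± 1158 in those kept at 27 °C and 65947 ± 810 in those kept at 32 °C. The library totals in the denominator of the share averaged lowest at 32 °C. Replicate 2 at 32 °C combined the lowest total, 1704920, the largest share of the 200, 3.89%, and the smallest share of the 100 most abundant isoforms, 23.5%, against 25.8 to 29.7% in the other libraries.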

How the data were processed

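FPKM values of 9 eyestalk libraries were deposited by the authors in 1 table, 1 column per library with 2 decimals, per the file headers. Per the submitters' processing notes, alignment software Bowtie2 and the abundance estimator RSEM were used, with no version stated. RSEM can divide reads between similar isoforms. Their settings, the transcript set, the genome build and read totals are not given in the sources at hand, so precision by depth is unknown. Columns were matched to libraries by title, 0 columns were unused and 0 pairs of libraries were identical.

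The isoforms and descriptions were chosen with earlier results of these data known. Values of log2(FPKM + 1) were compared with limma 3.58.1 (R 4.3.3) with trended variance, all 9 libraries in 1 fit, two-sided, with Benjamini-Hochberg adjustment over 101114 isoforms. Standard errors in the text, unless given as limma's, come from the replicates of each isoform, pooled over temperatures. The choice favoured small spread in the same libraries, so they run low. TPM, median-of-ratios and quantile scaling kept the 6360 abundant isoforms fixed. Named are the 2 isoforms at each end: smallest SD, highest and lowest mean, largest positive and negative difference. Both the choice and the fit were tested on simulated data. The alternatives that held out a library used the whole rule anew.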

Additional observations from a re-analysis of the deposited data

How the results depend on the processing

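Leaving out single libraries kept 162 to 181 of the 200 isoforms, and 0 of them were called in any limma test without a library. The count kept was 103 under TPM, 114 under median-of-ratios scaling, 130 under quantile normalization, 93 by pooled SD within temperatures, 128 at a minimum mean of 10 FPKM, 117 at 50 FPKM, and 98, 121 and 104 without the 22, 27 or 32 °C libraries. The changes of minimum alter the set of candidates; the cause of the others was not tested. The only call among the 200 came for 32 against 22 °C after quantile normalization, 1 isoform, isoform_23731, named after its values were seen. Its adjusted p (limma, Benjamini-Hochberg) was 0.0248 there and 0.1996 with FPKM as deposited. Over all isoforms, the 17 alternative settings called 376 to 1773 for 32 against 22 °C, against 1716 with the settings of the text, 91 to 816 against 594 for 27 against 22 °C, 18 to 245 against 121 for 32 against 27 °C, and 173 to 1176 against 1132 in the F-test. The lowest of each came from the fit with a replicate block, which called 0 of the 200. The labels tie replicate numbers to no shared tank or day, and same-numbered libraries deviated together at correlations of -0.019 to 0.052. At both other temperatures, 3 of 9 libraries correlated best with their own number, and each of these was a replicate 1. Their correlations with each other were 0.014 to 0.052. The held-out deviation stayed within the spread between libraries under the 4 alternatives tried, which were chosen after seeing the data, as were the descriptions by abundance and by scaling. Unknown depth limits how much of the remaining spread can be ascribed to counting.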

Other observations

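Isoforms that agree closely between replicates need not keep their level across temperatures. The 200 abundant isoforms with the smallest pooled SD within temperatures, a choice that did not use the differences between temperatures, had SDs of 0.026 to 0.11 on the log2(FPKM + 1) scale, and 93 of them belonged to the steadiest 200 over all libraries. Between 32 and 22 °C they differed by a median of 0.26 in size, against 0.50 for the other 6160 abundant isoforms. Within 0.3 lay 116 of the 200 (58.0%), against 33.3% of the others. Beyond 1 lay 8, the farthest at 2.12, against 26.4% of the others. Between 27 and 22 °C the median size was 0.18, with 140 (70.0%) within 0.3 and 1 beyond 1. The others had a median of 0.49, with 32.9% within 0.3 and 25.7% beyond 1. For 32 against 27 °C the median size for the 200 was 0.17, with 164 (82.0%) within 0.3 and 0 beyond 1. The others had a median of 0.39 there, with 41.0% within 0.3 and 18.9% beyond 1. These are descriptions of 1 choice of isoforms, and no test was made on them.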
